A study of Mus musculus with 17 samples.

Results

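The genes described here encode the protein coat of the plasma lipoproteins and the machinery that loads and releases them from the liver. They are the apolipoproteins Apoa4, Apoa1, Apoa2, Apoa5, Apob, Apoc2, Apoc3, and Apoe, the microsomal triglyceride transfer protein gene Mttp, and Creb3l3, which encodes the transcription factor CREBH. The 10 genes were taken by gene symbol from the deposited table of log2 ratios. They were measured by 16 of the 41174 non-control probes and were 10 of the 19358 genes that had a tested probe. The set was chosen by gene name with earlier results of these arrays known, and Apoa4 was selected on its difference between HFD+1B and chow. Apoa4 is therefore described without a test, and counts of called genes cover the 9 other genes. All 16 probes were well above background in the liver channel on all 17 arrays, 0 of them were saturated on any array, and all 16 were tested.

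Livers of male mice, C57BL/6N by the sample labels and C57BL/6J by the study's methods, were compared in 4 groups. The chow group (n = 4) was fed chow for 3 months and then given maltose by gavage. The 1B group (n = 4) had the same diet and a single ethanol gavage of 5 g/kg, the binge. The HFD group (n = 4) was fed a high-fat diet for 3 months and given the maltose gavage, and the HFD+1B group (n = 5) was fed that diet and given the ethanol gavage. All mice thus had a gavage, and the groups carried no genetic change. Each array held Cy5-labeled liver cDNA of 1 mouse and Cy3-labeled mouse reference RNA, with the dyes never exchanged. All values are log2 ratios of liver to that reference, so that 0 marks a liver signal equal to the reference and levels cannot be compared between genes. A difference of 1 between groups is a 2-fold difference. The labels number the mice and do not mention cages or litters, so p-values measure the spread between these individual livers.

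Lipoproteins carry triglyceride and cholesterol in plasma. In hepatocytes, Mttp transfers lipid onto Apob as it is made, and the particle leaves as very-low-density lipoprotein. The smaller apolipoproteins exchange between particles: Apoc2 activates lipoprotein lipase, Apoc3 slows lipolysis and uptake, Apoa5 favors lipolysis, Apoe binds uptake receptors, and Apoa1 and Apoa2 are the main proteins of high-density lipoprotein. Apoa4 rides on triglyceride-rich particles and is, in chow-fed mice, foremost a product of the small intestine. CREBH is released from the membrane of the endoplasmic reticulum by cleavage, a step that mRNA levels do not show, and is known to activate Apoa4, Apoc2, and Apoa5. The question behind the 4 groups was what a high-fat diet and a binge do to the liver alone and together.

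The arrays differed in ways that touch these genes. The share of probes above background was 73.8% to 85.9%, and the median Cy5 signal was 43 to 138.5 intensity units, lowest on an HFD array. The 5 probes for ribosomal RNA (Rn18s, Rn28s1, and Rn45s), singled out after their values were seen, had a mean log2 ratio of -3.81 to -2.15 on the HFD arrays, against 0.22 to 0.59 on the chow, -1.16 to 0.12 on the 1B, and -1.03 to 1.12 on the HFD+1B arrays. All 5 fell in HFD compared with chow, with log2 differences of -4.03 to -2.26 (highest adjusted p = 0.000495). Detection alone did not set cell types apart, since all 10 stellate cell and all 8 sinusoidal endothelium markers were above background on all 17 arrays. So were the 13 tested hepatocyte marker genes, including Alb and Ttr. Their mean log2 ratio ran from -0.11 to 0.19 over the chow mice, 0.24 to 0.74 over the 1B mice, -0.23 to 0.51 over the HFD mice, and 0.26 to 1.05 over the HFD+1B mice, and 8 of the 13 rose and 2 fell in HFD+1B compared with chow. Of all genes, 8.90% rose and 7.39% fell in that comparison. The part of the ribosomal RNA shift or of the hepatocyte marker shift in the results below was not tested. In whole liver, fewer cells of a type and less RNA per cell cannot be told apart.

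Apoa4 had the widest range of the 10 genes. Its single probe is shown because the steepest difference of the set rests on this stretch of 60 bases.
Apoa4 probe A_51_P327491: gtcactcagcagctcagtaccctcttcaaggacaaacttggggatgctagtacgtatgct
The log2 ratio of Apoa4 was -4.67, -4.21, -4.0, and -4.22 in chow mice 1 to 4, and -1.98, -2.30, -2.06, and -1.70 in 1B mice 1 to 4. It was 0.76, 1.83, and 0.41 in HFD mice 2 to 4, since the spot of HFD mouse 1 was marked as an outlier by the scanner software and left out. In HFD+1B mice 1 to 5 it was -0.37, 2.00, 0.14, 1.68, and 1.30. Every 1B mouse lay above every chow mouse, every mouse on the high-fat diet lay above every 1B mouse, and HFD and HFD+1B overlapped.

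The group means of Apoa4 were -4.27 ± 0.28 (SD, n = 4) in chow, -2.01 ± 0.25 (n = 4) in 1B, 1.00 ± 0.74 (n = 3) in HFD, and 0.95 ± 1.02 (n = 5) in HFD+1B. Compared with chow, the mean was thus higher by 2.26 with the binge, by 5.28 with the high-fat diet, and by 5.22 with both, which is 4.80-fold, 38.8-fold, and 37.4-fold. HFD+1B and HFD differed by -0.05, far less than the spread within either group. The binge difference was 2.26 on chow and -0.05 on the high-fat diet, and the gap between them, -2.32, is given without a test. Within slides, which each held arrays of several groups, 1B exceeded chow by 1.91 to 2.69 on 3 slides, HFD exceeded chow by 4.97 to 6.05 on 2 slides, and HFD+1B exceeded chow by 4.30 to 6.00 on 4 slides. Scaling the Cy5 signal alone gave 4.36 for HFD+1B against chow, below the 5.22 of the ratio.

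**Figure D1:**
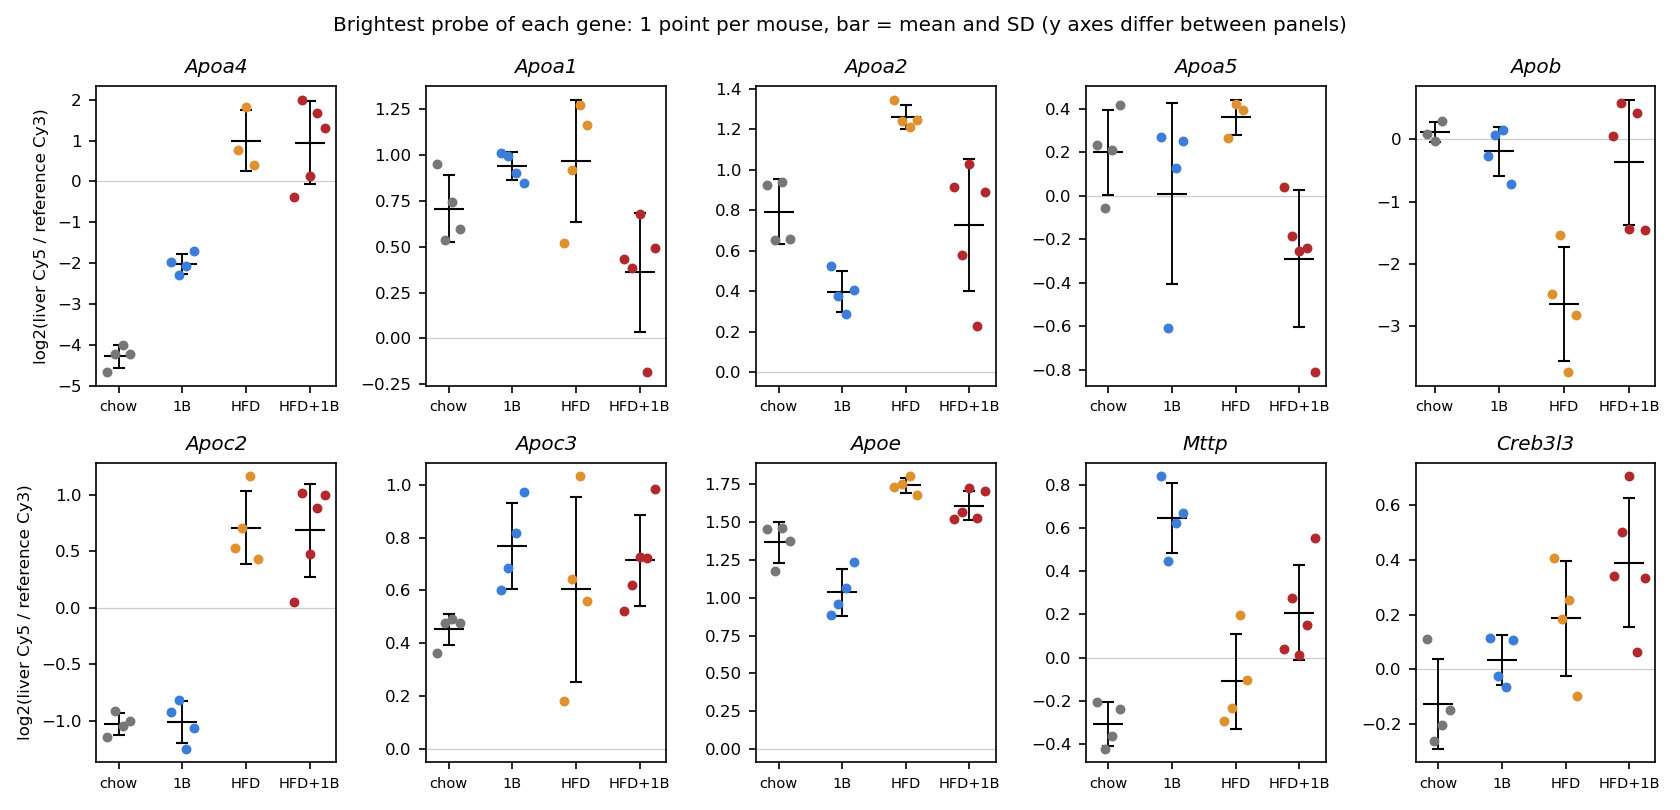
Log2 ratio of liver to reference RNA (vertical axis) for the brightest probe of each of the 10 genes, 1 panel per gene. Each point is 1 mouse in the chow, 1B, HFD, or HFD+1B group, and bars show the mean and SD. Mean Apoa4 stepped from -4.27 (chow) to -2.01 (1B) and 1.00 (HFD), Apoc2 values of the diets did not overlap, and the mean of Mttp was highest in 1B. Vertical axes differ between panels.

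Because Apoa4 is an intestinal gene in mice, enterocyte markers were examined beside it. Of 14 listed, 11 were tested. Of these 11, 9 were above background on every array, Cdx1 on 16 arrays, and Mep1b on 15. Cdx2, Slc15a1, and Cdh17 were above background on 0 arrays and were not tested. The mean log2 ratio of the 11 lay between -0.10 and 0.08 in the chow mice, -0.12 and -0.06 in the 1B mice, -0.05 and 0.12 in the HFD mice, and 0.03 and 0.14 in the HFD+1B mice, while Apoa4 spanned -4.67 to 2.00. Compared with chow, 4.49% of all genes rose and 6.47% fell in HFD, and 8.90% and 7.39% in HFD+1B. Of the 11 markers, 1 rose and 1 fell in HFD, and 2 rose and 1 fell in HFD+1B. The gene that rose in both was Fabp2, a fatty acid binding protein of the gut, by 1.62 in HFD (adjusted p = 5.2e-05) and 1.38 in HFD+1B (adjusted p = 2.0e-05). Sis, Lct, Mep1b, Rbp2, and Vil1 were not called. The part of intestinal RNA in the Apoa4 values was not tested.

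Apoc2, the activator of lipoprotein lipase, was higher on the high-fat diet with or without the binge. Its log2 ratio was -1.14, -0.91, -1.05, and -1.0 in chow mice 1 to 4, and -0.92, -0.82, -1.25, and -1.06 in 1B mice 1 to 4. It was 0.53, 0.70, 1.16, and 0.43 in HFD mice 1 to 4, and 0.05, 1.01, 0.48, 0.88, and 1.00 in HFD+1B mice 1 to 5. All 9 mice on the high-fat diet lay above all 8 chow-fed mice. Apoc2 rose by 1.73 in HFD compared with chow (SE 0.19, 3.32-fold, adjusted p = 5.8e-05) and by 1.71 in HFD+1B compared with chow (SE 0.18, 3.26-fold, adjusted p = 5.9e-06). It also rose by 1.70 in HFD+1B compared with 1B (SE 0.18, adjusted p = 1.4e-05). The ethanol differences were 0.01 on chow (95% confidence interval -0.39 to 0.41, adjusted p = 0.99) and -0.02 on the high-fat diet (-0.40 to 0.35, adjusted p = 0.95). The 3 diet differences passed the test under all 13 alternative settings and without any 1 of the 17 mice. Within slides, Apoc2 was 1.61 to 2.16 higher in HFD than in chow on 3 slides.

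Apoa4 and Apoc2 had the same extreme mice within the high-fat groups. HFD mouse 3 was the highest of its group for both genes, HFD+1B mouse 1 was the lowest of its group for both, and HFD+1B mouse 2 the highest. The high rank of HFD mouse 3 was not particular to this pair. It was also the highest HFD mouse for Apoa1 (1.28), Apoa5 (0.42), Apoc3 (1.03), Apoe (1.81), Mttp (0.20), and the hepatocyte marker mean (0.51). For Apoa2, Apob, and Creb3l3 it was not. Over the 16 arrays with values of both Apoa4 and Apoc2, Pearson's r was 0.93. This is a description only, since the arrays share groups, reference, and normalization. The promoters of this pair are shown because both are known to be activated by CREBH. Each is the 250 bases before the start site in RefSeq GRCm38.p6, 5′ to 3′ on the strand of the gene, with matches to the searched motifs in capitals.
Apoa4, chr9:46240594-46240843, plus strand: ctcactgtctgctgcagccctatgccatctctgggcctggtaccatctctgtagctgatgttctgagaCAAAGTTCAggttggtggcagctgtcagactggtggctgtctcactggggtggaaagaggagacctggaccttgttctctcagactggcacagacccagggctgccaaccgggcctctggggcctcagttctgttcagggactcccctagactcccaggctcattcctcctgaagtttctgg
Apoc2, chr7:19677942-19678191, minus strand: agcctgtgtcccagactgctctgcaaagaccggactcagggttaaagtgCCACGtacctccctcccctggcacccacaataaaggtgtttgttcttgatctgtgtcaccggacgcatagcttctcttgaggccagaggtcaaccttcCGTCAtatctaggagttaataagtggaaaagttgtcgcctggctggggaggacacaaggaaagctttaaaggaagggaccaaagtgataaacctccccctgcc
Both strands were searched for TGACG, the core bound by CREB-type factors, for CCACG, which ends the endoplasmic reticulum stress element, for CAAAGTNCA, a pattern of HNF4, and for TATAAA. The Apoa4 window held 1 match, CAAAGTNCA at -182, a pattern found in 1.19% of 32851 promoters. The Apoc2 window held CCACG at -201 and, on the opposite strand so that it reads CGTCA here, TGACG at -103, patterns found in 28.3% and 17.8% of promoters. Among the other members, TGACG was in the windows of Apoa2, Mttp, and Creb3l3, CCACG in those of Apoa5 (on both strands, overlapping), Mttp, and Creb3l3, and TATAAA (12.4% of promoters) in those of Apoa2, Apoa5, Apob, and Apoe. Apoa2, Apoa5, and Creb3l3 had 2 start sites each and Apoe 3, and the window of each site was searched. The matches of Apoa2 and Creb3l3 were at start site 1 only and those of Apoe at site 2 only, while Apoa5 matched at both. The Apoa1 window held no match. Windows were read for 9 of the 10 members, and Apoc3 had no entry.

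Creb3l3 differed by 1.43-fold at most from chow. Its log2 ratio was 0.11, -0.26, -0.20, and -0.15 in chow mice 1 to 4 and 0.12, -0.03, -0.06, and 0.11 in 1B mice 1 to 4. It was 0.41, 0.18, 0.25, and -0.10 in HFD mice 1 to 4 and 0.34, 0.50, 0.71, 0.06, and 0.33 in HFD+1B mice 1 to 5. It rose by 0.52 in HFD+1B compared with chow (SE 0.12, 1.43-fold, adjusted p = 0.0079), although HFD+1B mouse 4 lay below chow mouse 1, and the call was lost with Cy5 alone (0.52, adjusted p = 0.083). The differences were 0.31 in HFD (adjusted p = 0.14) and 0.16 in 1B (adjusted p = 0.71). HFD+1B minus HFD was 0.20 (95% confidence interval -0.06 to 0.46, adjusted p = 0.28). Apoa4 thus differed 38.8-fold between HFD and chow where Creb3l3 mRNA differed 1.24-fold.

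Mttp, which lipidates Apob, rose after the binge on chow. Its log2 ratio was -0.20, -0.42, -0.36, and -0.24 in chow mice 1 to 4 and 0.84, 0.45, 0.62, and 0.67 in 1B mice 1 to 4. It was -0.29, -0.24, 0.20, and -0.10 in HFD mice 1 to 4, and 0.04, 0.28, 0.01, 0.15, and 0.55 in HFD+1B mice 1 to 5. The chow mice were all below the 1B mice and all below the HFD+1B mice. Mttp rose by 0.95 in 1B (SE 0.13, 1.94-fold, adjusted p = 0.00029) and by 0.51 in HFD+1B (SE 0.12, 1.43-fold, adjusted p = 0.0074), both compared with chow. In HFD the difference was 0.20 (adjusted p = 0.36). The rise in 1B was 0.87 to 1.04 within each of 3 slides, and the call held without any 1 mouse (highest adjusted p = 0.0017). With the Cy5 signal alone both calls were lost, at 0.93 in 1B (adjusted p = 0.11) and 0.25 in HFD+1B (adjusted p = 0.73). The call in HFD+1B was also lost under the methods' analysis of variance with Tukey's test. The mean of the 13 hepatocyte markers, given above, was also higher in every 1B mouse than in every chow mouse.

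Between the ethanol groups, Mttp was 0.44 lower in HFD+1B than in 1B (log2 difference -0.44, SE 0.12, adjusted p = 0.028), with overlapping mice. That call was lost in 6 of the 17 fits that left out 1 mouse, namely without 1B mice 1, 3, or 4 or HFD+1B mice 1, 3, or 4 (highest adjusted p = 0.10), and with median centring (-0.28, adjusted p = 0.40), the authors' log2 ratios, or Cy5 alone. It was also lost under the methods' analysis of variance with Tukey's test. The ethanol difference of Mttp on the high-fat diet was 0.32 (adjusted p = 0.082), and its gap to that on chow was -0.64 (adjusted p = 0.051). That gap was on the other side of the threshold in 4 of 11 alternatives, a mean-variance trend among them (lowest adjusted p = 0.020).

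Apob, the structural protein of very-low-density lipoprotein, was lower in HFD than in chow on 3 of its 5 probes and did not pass the test on the other 2. The 5 probe sequences are shown because the results differ among them. They share no run longer than 7 bases with each other, so they read separate stretches of the transcript, and their positions along it were not used here.
Apob probe A_51_P470542: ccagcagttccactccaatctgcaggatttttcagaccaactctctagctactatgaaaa
Apob probe A_52_P441070: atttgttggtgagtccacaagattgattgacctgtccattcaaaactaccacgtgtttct
Apob probe A_51_P380650: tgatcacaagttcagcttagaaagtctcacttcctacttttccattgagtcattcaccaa
Apob probe A_51_P413088: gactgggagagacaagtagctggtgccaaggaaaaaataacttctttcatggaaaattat
Apob probe A_51_P436690: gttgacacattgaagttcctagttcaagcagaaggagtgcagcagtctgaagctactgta
On the brightest, A_51_P470542, the log2 ratio was 0.08, -0.03, and 0.29 in chow mice 2 to 4 (mouse 1 was left out as an outlier spot), and -0.27, 0.07, 0.15, and -0.71 in 1B mice 1 to 4. It was -2.49, -1.53, -3.75, and -2.83 in HFD mice 1 to 4, and 0.05, 0.59, -1.44, 0.43, and -1.46 in HFD+1B mice 1 to 5. All HFD mice were below all other mice, the closest being HFD mouse 2 and HFD+1B mouse 5, while chow, 1B, and HFD+1B overlapped.

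On that probe, Apob fell by 2.77 in HFD compared with chow (SE 0.50, adjusted p = 0.0028) and rose by 2.28 in HFD+1B compared with HFD (SE 0.44, adjusted p = 0.0022). The same comparisons gave -3.11 (adjusted p = 0.00057) and 2.50 (adjusted p = 0.00096) on A_52_P441070, and -1.86 (adjusted p = 0.0021) and 1.40 (adjusted p = 0.0050) on A_51_P380650. They gave -1.11 (adjusted p = 0.059) and 0.82 (adjusted p = 0.11) on A_51_P413088, and -0.77 (adjusted p = 0.055) and 0.48 (adjusted p = 0.17) on A_51_P436690. The direction was thus the same on 5 of 5 probes, 3 of 5 passed the test, and the size of the HFD difference ranged from -3.11 to -0.77. HFD+1B and chow differed by -0.48 on the brightest probe (adjusted p = 0.60). On this probe the calls in HFD minus chow and in HFD+1B minus HFD each held under 12 of 13 alternatives. Both were lost under the methods' analysis of variance with Tukey's test (adjusted p = 0.090 and 0.063). Within slides, HFD minus chow was -4.04 to -1.62 on 2 slides. HFD+1B minus HFD was 2.54, 0.07, 2.30, and 3.26 on slides 1, 2, 4, and 5. The 5 probes of a single mouse spread over 0.38 to 0.59 in the chow mice, 0.15 to 0.72 in the 1B mice, 1.04 to 3.24 in the HFD mice, and 0.43 to 1.16 in the HFD+1B mice.

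**Figure D2:**
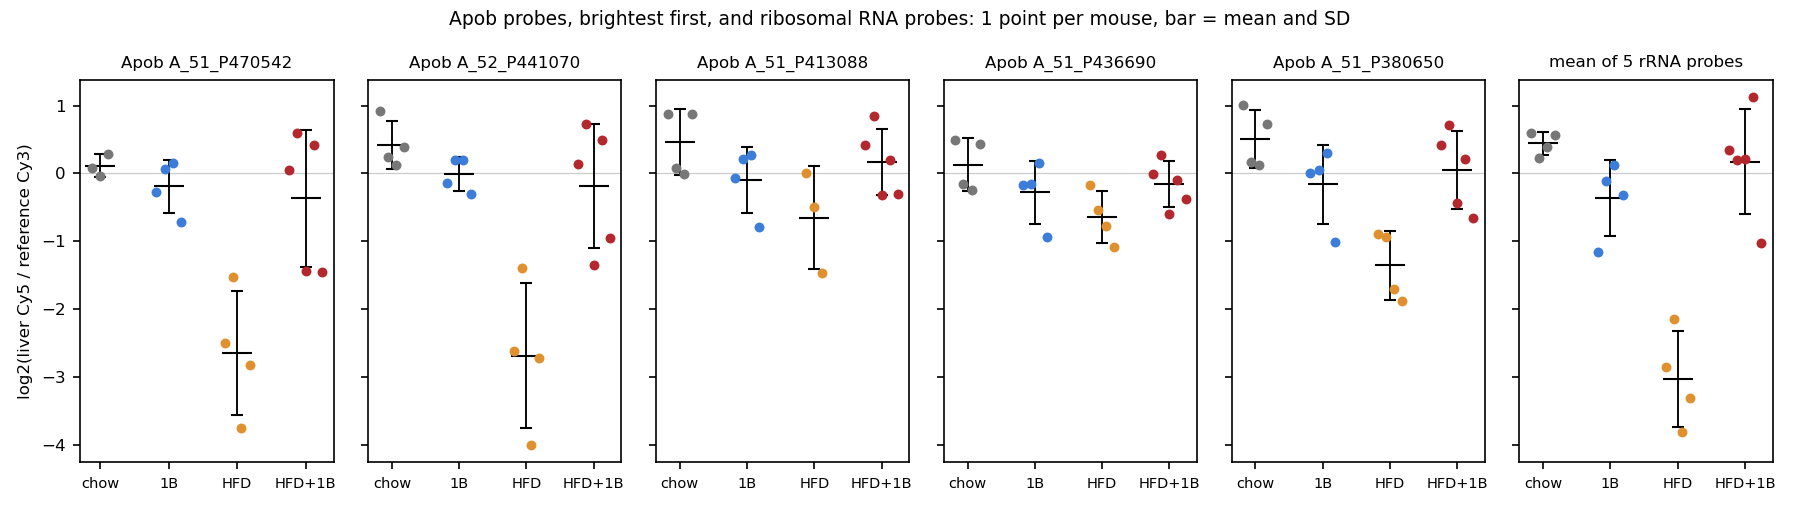
Log2 ratio of liver to reference RNA (vertical axis) of the 5 Apob probes, 1 panel each, and of the mean of the 5 ribosomal RNA probes in the last panel, by group. Points are mice and bars are the mean and SD. In HFD the mean was lowest on A_51_P470542 and A_52_P441070, and the ribosomal RNA mean was at -3.81 to -2.15.

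The ribosomal RNA probes, like these 3 Apob probes, were lower in HFD than in chow. In HFD mice 1 to 4 the ribosomal RNA mean was -2.85, -2.15, -3.81, and -3.31. The order from low to high (mice 3, 4, 1, 2) was that of the brightest Apob probe and of A_52_P441070. On A_51_P380650 the order was mice 4, 3, 2, 1 (-1.88, -1.70, -0.94, and -0.90). A_51_P436690 had the same order as A_51_P380650, and A_51_P413088, with no value in mouse 3, ran 4, 2, 1. In 1B mouse 1 ribosomal RNA was -1.16 and the brightest Apob probe -0.27, and in 1B mouse 4 they were -0.31 and -0.71. In HFD+1B the values parted in mouse 3, at 0.22 for ribosomal RNA and -1.44 for Apob, while mouse 5 was low in both, at -1.03 and -1.46. All 5 ribosomal RNA probes rose in HFD+1B compared with HFD, by 1.65 to 4.08. What part this shift had in the Apob values was not tested.

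The ethanol difference of Apob on the high-fat diet exceeded that on chow by 2.59 on the brightest probe (SE 0.67, adjusted p = 0.039), 2.94 on A_52_P441070 (adjusted p = 0.017), and 2.07 on A_51_P380650 (adjusted p = 0.018). On A_51_P413088 and A_51_P436690 the excess was 1.37 (adjusted p = 0.11) and 0.89 (adjusted p = 0.15). The call on the brightest probe was lost in 12 of the 17 fits that left out 1 mouse. It remained only without 1B mouse 3, HFD mouse 1 or 2, or HFD+1B mouse 3 or 5, and over all 17 fits the excess was 2.23 to 2.96 with adjusted p from 0.016 to 0.091.

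Apoe, the ligand for receptor uptake, was higher in HFD than in chow and higher in HFD+1B than in 1B. Its log2 ratio was 1.46, 1.17, 1.46, and 1.37 in chow mice 1 to 4 and 0.88, 0.96, 1.07, and 1.24 in 1B mice 1 to 4. It was 1.73, 1.76, 1.81, and 1.68 in HFD mice 1 to 4 and 1.52, 1.57, 1.73, 1.53, and 1.71 in HFD+1B mice 1 to 5. All mice on the high-fat diet lay above all chow-fed mice, and 1B overlapped with chow only through 1B mouse 4 and chow mouse 2. Each value was the mean of up to 10 spots, whose median SD within an array was 0.09. Apoe rose by 0.38 in HFD compared with chow (SE 0.09, 1.30-fold, adjusted p = 0.017) and by 0.57 in HFD+1B compared with 1B (SE 0.09, 1.49-fold, adjusted p = 0.00052). The first call was lost without chow mouse 2 (0.31, adjusted p = 0.055) or HFD mouse 3 (0.36, adjusted p = 0.053), and the sign turned when arrays were centred on their median without loess (-0.10, adjusted p = 0.79). With Cy5 alone or a mean-variance trend neither call remained (adjusted p = 0.16 and 0.38 for the first, 0.12 and 0.16 for the second). The methods' analysis of variance with Tukey's test also lost the first call. In 1B the difference from chow was -0.33 (adjusted p = 0.061), and in HFD+1B it was 0.24 (adjusted p = 0.078).

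Macrophages also express Apoe. The mean log2 ratio of 13 tested macrophage and Kupffer cell markers ran from -0.43 to 0.01 in the chow mice and -0.38 to -0.20 in the 1B mice. It ran from 0.24 to 0.35 in the HFD mice and -0.08 to 0.45 in the HFD+1B mice. Of these markers, 6 rose in HFD and 2 in HFD+1B compared with chow. Their part in the Apoe values was not tested. Among markers of other cells, 4 of 10 stellate cell, 2 of 8 sinusoidal endothelium, 1 of 10 neutrophil, and 1 of 8 adipocyte markers rose in HFD compared with chow, and 0 of these fell. In HFD+1B, 7 of 10, 2 of 8, 2 of 10, and 1 of 8 of the same lists rose, and 0, 4, 1, and 1 fell. The shares of all genes were 4.49% higher and 6.47% lower in HFD, and 8.90% and 7.39% in HFD+1B.

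Apoa2, of high-density lipoprotein, was highest in HFD. Its log2 ratio was 0.93, 0.65, 0.94, and 0.66 in chow mice 1 to 4 and 0.53, 0.37, 0.29, and 0.41 in 1B mice 1 to 4. It was 1.35, 1.24, 1.21, and 1.25 in HFD mice 1 to 4 and 0.92, 0.58, 1.03, 0.23, and 0.89 in HFD+1B mice 1 to 5. Every HFD mouse lay above all other mice, and every 1B mouse below all chow mice. Apoa2 fell by 0.53 in HFD+1B compared with HFD (SE 0.13, adjusted p = 0.0093), a call kept without any 1 mouse but lost with median centring (-0.26, adjusted p = 0.27). It was 0.47 higher in HFD than in chow (SE 0.14, adjusted p = 0.039), a call lost without chow mice 1, 2, or 4 or any 1 of the HFD mice (highest adjusted p = 0.11), and 0.05 higher with median centring (adjusted p = 0.89). Both calls were also lost under the methods' analysis of variance with Tukey's test. The ethanol difference on chow was -0.39 (adjusted p = 0.16).

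Apoa1, the main protein of high-density lipoprotein, was lowest in HFD+1B. Its log2 ratio was 0.95, 0.54, 0.74, and 0.60 in chow mice 1 to 4 and 1.01, 0.99, 0.90, and 0.85 in 1B mice 1 to 4. It was 0.52, 0.92, 1.28, and 1.16 in HFD mice 1 to 4 and 0.44, 0.38, 0.68, -0.18, and 0.50 in HFD+1B mice 1 to 5. All HFD+1B mice lay below all 1B mice, whereas HFD+1B overlapped with chow and, through HFD mouse 1, with HFD. Apoa1 fell by 0.61 in HFD+1B compared with HFD (SE 0.16, adjusted p = 0.014) and by 0.58 compared with 1B (SE 0.16, adjusted p = 0.028). Without HFD mouse 3 or 4 the first call was lost (-0.51 and -0.54, adjusted p = 0.056 and 0.053), and the second was lost without 1B mice 1, 2, or 3 or HFD+1B mouse 4 (highest adjusted p = 0.075). Median centring ended both calls (-0.34, adjusted p = 0.32, and -0.55, adjusted p = 0.19), and the second was also lost with the authors' log2 ratios (-0.61, adjusted p = 0.052) and with Cy5 alone (-0.29, adjusted p = 0.27). Neither call remained under the methods' analysis of variance with Tukey's test. The ethanol difference on the high-fat diet was 0.84 below that on chow (log2 difference -0.84, adjusted p = 0.050, just above the threshold when unrounded). It passed the threshold in 5 of 11 alternatives, slide as a block among them (lowest adjusted p = 0.038).

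Apoa5, which favors lipolysis of triglyceride-rich particles, fell by 0.65 in HFD+1B compared with HFD on its brighter probe (SE 0.19, adjusted p = 0.029). The mice spanned 0.27 to 0.42 in HFD (n = 3, mouse 1 being an outlier spot) and -0.81 to 0.04 in HFD+1B (n = 5), without overlap, and -0.06 to 0.42 in chow and -0.61 to 0.27 in 1B. The call was lost without HFD mouse 3 or 4 (highest adjusted p = 0.087) and with median centring (-0.48, adjusted p = 0.19). It was also lost under the methods' analysis of variance with Tukey's test. The second probe, which shares no run over 5 bases with the first, gave -0.49 (adjusted p = 0.062).

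Apoc3, which opposes Apoc2, was not called on its brighter probe in any comparison. The chow mice spanned 0.36 to 0.49, the 1B mice 0.60 to 0.97, the HFD mice 0.18 to 1.03, and the HFD+1B mice 0.52 to 0.98, so that all mice given ethanol lay above all chow mice. The differences from chow were 0.32 in 1B (adjusted p = 0.32) and 0.26 in HFD+1B (adjusted p = 0.23). The second probe, of which 50 of 60 bases are the same run, gave 0.30 in 1B (adjusted p = 0.068) and 0.31 in HFD+1B (adjusted p = 0.017).

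**Figure D3:**
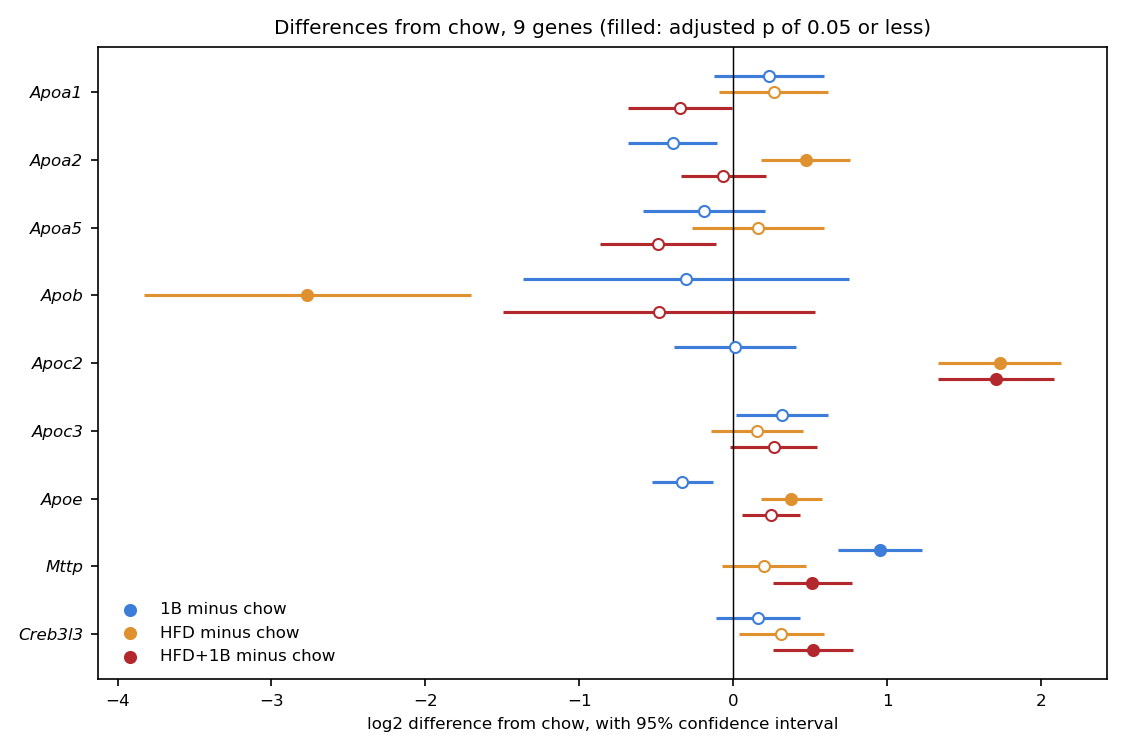
Log2 difference from chow (horizontal axis) of the 9 genes other than Apoa4 in 1B, HFD, and HFD+1B. Points are differences of group means on the brightest probe, filled where the adjusted p was 0.05 or less, and bars are 95% confidence intervals from the limma fit. Apoc2 lay at 0.01 in 1B and at 1.73 and 1.71 on the high-fat diet, and Apob lay at -2.77 in HFD.

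Counted together, the 9 genes other than Apoa4 did not move as a block. A gene was called at a Benjamini-Hochberg adjusted p of 0.05 or less over all tested probes. In 1B compared with chow, 1 of 9 rose (Mttp) and 0 fell, against 2.09% and 2.05% of all genes. In HFD compared with chow, 3 rose (Apoa2, Apoc2, Apoe) and 1 fell (Apob), against 4.49% and 6.47%. In HFD+1B compared with chow, 3 rose (Apoc2, Mttp, Creb3l3) and 0 fell, against 8.90% and 7.39%. These 3 comparisons share the chow mice. Their median differences over the 9 genes were 0.01, 0.26, and 0.24, where the median of all genes was within 0.01 of 0.

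Between the groups given ethanol or fed the high-fat diet, the calls ran both ways. In HFD+1B compared with HFD, 1 of 9 rose (Apob) and 3 fell (Apoa1, Apoa2, Apoa5), against 11.0% and 8.39% of all genes. With median centring the 3 lower calls were lost and 3 genes were called higher (Apob, Mttp, Creb3l3). In HFD+1B compared with 1B, 2 rose (Apoc2, Apoe) and 2 fell (Apoa1, Mttp), against 6.27% and 5.15%. For the gap between the ethanol differences on the 2 diets, 1 was above 0 (Apob) and 0 below, against 2.67% and 1.72%. In the order of the reference annotation, Apoa1, Apoc3, Apoa4, and Apoa5 lie next to each other, and in HFD compared with chow the other 3 differed by 0.26, 0.15, and 0.16 (adjusted p of 0.35, 0.54, and 0.68) where Apoa4 differed by 5.28. Apoc4 and Apoc1 lie between Apoc2 and Apoe, both of which rose in HFD, and differed by 0.21 (adjusted p = 0.23) and -0.28 (adjusted p = 0.35) in HFD.

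Other genes of lipoprotein transport were examined by lists that leave out the 10 members. The lists were written with earlier results of these data known, so their counts are a description only. Compared with chow, 2.09% of all genes rose and 2.05% fell in 1B, and 4.49% and 6.47% in HFD. In HFD+1B these shares were 8.90% and 7.39%, and all of them apply to every list below. Of 26 tested genes of lipoprotein assembly and secretion, 3 rose and 1 fell in 1B, 2 rose and 3 fell in HFD, and 4 rose and 4 fell in HFD+1B, all compared with chow, with medians of 0.13, 0.18, and 0.02. Lman1 and Mcfd2, a cargo receptor pair between endoplasmic reticulum and Golgi, rose by 0.62 (adjusted p = 0.0066) and 0.70 (adjusted p = 0.0081) in 1B. Ces1d, a lipase that supplies triglyceride for secretion, fell by 1.42 in 1B (adjusted p = 0.00025) and by 1.39 in HFD+1B (adjusted p = 3.9e-05). Vmp1, needed to release lipoproteins from the endoplasmic reticulum membrane, rose by 1.48 in HFD+1B (adjusted p = 8.4e-05), and Soat2, which esterifies cholesterol, by 0.74 (adjusted p = 0.0020). Mia2, which helps load large cargo, fell by 0.79 in HFD (adjusted p = 0.021).

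Of 13 other apolipoprotein genes, 0 rose and 2 fell in 1B, 1 rose and 2 fell in HFD, and 0 rose and 4 fell in HFD+1B, with medians of -0.14, 0.01, and -0.21. Apol7a fell by 1.58 after the binge (adjusted p = 5.9e-05), by 0.71 in HFD (adjusted p = 0.017), and by 2.03 in HFD+1B (adjusted p = 5.9e-07). Apom, a carrier on high-density lipoprotein, fell by 0.54 in HFD (adjusted p = 0.036) and 0.79 in HFD+1B (adjusted p = 0.0013). Apof rose by 0.69 in HFD (adjusted p = 0.0017).

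Of 16 genes of lipolysis and plasma remodelling, 1 rose in 1B and 0 fell, 3 fell in HFD and 0 rose, and 1 rose and 5 fell in HFD+1B, with medians of -0.18, -0.03, and -0.24. Angptl8, an inhibitor of lipoprotein lipase, rose by 1.89 in 1B (adjusted p = 0.0022), and its ethanol difference on the high-fat diet was 2.02 below that on chow (log2 difference -2.02, adjusted p = 0.019). The hepatic lipase gene Lipc fell by 0.69 in HFD and 0.65 in HFD+1B.

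Of 15 tested genes of lipoprotein uptake receptors and their partners, 0 rose and 3 fell in 1B, 3 rose and 0 fell in HFD, and 4 rose and 0 fell in HFD+1B, with medians of -0.06, 0.16, and 0.05. Cd36, a fatty acid and lipoprotein receptor, rose by 1.80 in HFD (adjusted p = 0.00083) and 2.20 in HFD+1B (adjusted p = 2.2e-05), and Vldlr by 0.59 (adjusted p = 0.028) and 1.34 (adjusted p = 1.2e-05).

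Of 10 genes of high-density lipoprotein formation and sterol efflux, 1 rose and 3 fell in 1B, 0 rose and 1 fell in HFD, and 1 rose and 3 fell in HFD+1B, with medians of -0.17, 0.05, and -0.21. Abca1, which loads lipid onto Apoa1, rose by 0.91 in 1B (adjusted p = 0.0069) and 1.56 in HFD+1B (adjusted p = 8.2e-06). Abcg8, a unit of the sterol exporter into bile, fell by 1.94 in 1B (adjusted p = 0.00016) and 1.45 in HFD+1B (adjusted p = 0.00031), and its partner Abcg5 fell by 1.22 in 1B (adjusted p = 0.00025).

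Of 18 tested targets and partners of CREBH other than the members, 1 rose and 3 fell in 1B, 7 rose and 1 fell in HFD, and 4 rose and 3 fell in HFD+1B, with medians of -0.11, 0.29, and 0.03. The lipid droplet proteins Cidec and Cidea rose by 3.43 (adjusted p = 0.00025) and 2.12 (adjusted p = 9.9e-05) in HFD, and by 3.72 (adjusted p = 1.4e-05) and 2.20 (adjusted p = 6.3e-06) in HFD+1B. Fgf21, a hormone of fasting metabolism, rose by 1.94 in HFD (adjusted p = 0.0018) and 1.57 in HFD+1B (adjusted p = 0.0023). Cyp7b1, an enzyme of bile acid synthesis, fell by 1.67 in HFD (adjusted p = 0.0049) and 2.93 in HFD+1B (adjusted p = 8.1e-06). Syvn1, a ubiquitin ligase of the endoplasmic reticulum, rose by 1.24 in 1B (adjusted p = 0.0028).

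Of 22 tested transcription regulators of apolipoprotein genes, 1 rose and 2 fell in 1B, 0 rose and 5 fell in HFD, and 1 rose and 7 fell in HFD+1B, with medians of -0.19, -0.17, and -0.40. Ppara, the receptor of fatty acids, fell by 1.06 in 1B (adjusted p = 0.032) and 1.09 in HFD+1B (adjusted p = 0.0064), and Nr0b2, a repressor downstream of bile acids, by 1.44 (adjusted p = 0.0030) and 1.43 (adjusted p = 0.00055). Mlxipl, the carbohydrate response factor, rose by 0.86 in 1B (adjusted p = 0.00014), and Cebpb rose by 0.86 in HFD+1B (adjusted p = 0.0090). Hnf4a, which drives many of these genes, differed from chow by -0.03, -0.36, and -0.11 (adjusted p = 0.97, 0.15, and 0.72).

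**Figure D4:**
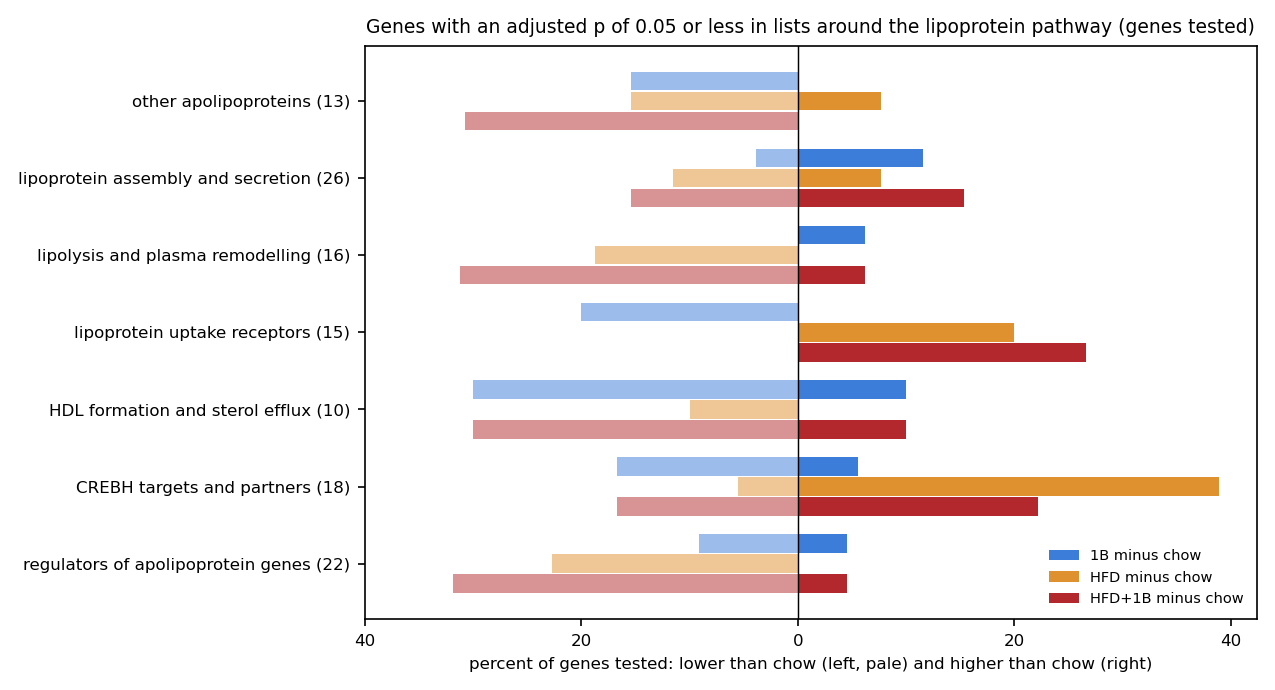
Percent of the tested genes of each list (horizontal axis, genes tested in parentheses) that were higher (right) or lower (left, pale) than chow in 1B, HFD, and HFD+1B at an adjusted p of 0.05 or less. The lists were written with earlier results of these data known, so the percents are a description only. Targets and partners of CREBH had 7 of 18 higher in HFD, and uptake receptors had 4 of 15 higher and 0 lower in HFD+1B. Of all genes, 4.49% were higher in HFD, and 8.90% were higher and 7.39% lower in HFD+1B.

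The genes whose log2 ratio followed Apoa4 most closely over the 16 arrays with a value, among 17987 genes compared, were S100a10 (r = 0.97), Treh (r = 0.96), Ftl1 (r = 0.95), Ucp2 (r = 0.95), and Cidec (r = 0.95). For Creb3l3, over 17 arrays and 17986 genes, they were Pdzrn3 (r = 0.87), Plce1 (r = 0.86), Erich6 (r = 0.83), Plekhm2 (r = 0.82), and Cast (r = 0.81). The arrays share groups and normalization, so these values describe likeness over these livers and were not tested. Among the members, Apoc2 and Apoe had r = 0.79, Apoa2 and Apoe r = 0.75, and Apoa2 and Apob r = -0.79.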

How the data were processed

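Liver RNA of 17 mice was measured on 2-color Agilent arrays, 1 per mouse, with a common reference RNA (labeled an assortment of mouse RNA, with liver as its tissue) in Cy3. The authors extracted RNA with Trizol and Qiagen columns, labeled cDNA indirectly, and read spots with Feature Extraction 11.5.1.1. The deposited scanner files hold raw median signals and backgrounds as intensity, without normalization. The authors' table gives log2 ratios of their processed signals, checked to a largest difference of 2.7e-06, and was used as an alternative and for gene symbols. The members and gene lists were chosen with earlier results of these data known.

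Signals were corrected with normexp (offset 50), outlier spots were left out, and log ratios were loess-normalized per array and averaged over spots of a probe. Probes above background in Cy5 on at least 4 arrays with a value in every group were tested (34649 of 41174). All 17 arrays entered 1 limma 3.58.1 fit of the group means in R 4.3.3 (lmFit, eBayes, 13 residual degrees of freedom), with Benjamini-Hochberg adjustment over all tested probes, in 6 comparisons: each other group against chow, HFD+1B against HFD and against 1B, and the interaction (the ethanol difference on the high-fat diet less that on chow). A gene was represented by its probe brightest in Cy5. Fold changes are compressed by the offset at low signal. The number of arrays limits the precision. The fit was tested on simulated data with changes planted in HFD+1B. Against chow it called 41.8% of planted log2 changes of 0.5, 86.6% of changes of 1, and 100% of changes of 2. The highest correlation between arrays was 0.993, with 0 identical columns. Genes named from lists were, per list, at most 4 with the largest change of at least 1.5-fold among those called in HFD+1B, and at most 2 more each in HFD and 1B, all against chow. The members, the 5 genes most like Apoa4 and like Creb3l3, and markers were also named. Some list genes are counted but not reported here by name. Hnf4a, Apoc1, and Apoc4 were named after their values were seen. Promoters and gene order are from RefSeq GRCm38.p6, and probe sequences are those of the deposited array files. The array was annotated on mm9, and no coordinates were moved between builds.

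Alternatives were no background subtraction, median centring, the authors' log2 ratios, Cy5 alone, other filters on dim probes, slide or replicate number as a block, a mean-variance trend, the mean of all probes, a 2-fold call rule, the methods' analysis of variance with Tukey's test, and leaving out each mouse. Same-numbered mice did not all deviate together, so the numbers were not used as pairs.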

Additional observations from a re-analysis of the deposited data

Results flagged for a closer look

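In groups of 4 or 5 mice, 59 sets of values of 1 probe in 1 group were examined for a mouse far from the others, and about 1 set in 20 is singled out by chance. Apoa5 in 1B mouse 2 was -0.61 on the brighter probe, where the other 1B mice were 0.13 to 0.27, and -0.78 on the second probe, where the others were -0.07 to 0.05. Apoc3 in chow mouse 1 was 0.36, where the other chow mice were 0.48 to 0.49.

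The ethanol difference of Apob on the high-fat diet exceeded that on chow by 2.59 (A_51_P470542, adjusted p = 0.039), 2.94 (A_52_P441070, adjusted p = 0.017), and 2.07 (A_51_P380650, adjusted p = 0.018) in the limma interaction. The ribosomal RNA probes moved in the same comparison by 2.53 to 4.65, and their part was not tested.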

How the results depend on the processing

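Each called difference was taken again under each alternative, so a single difference counts many times here. Of these combinations of difference and alternative, 177 kept direction and call, and 42 kept the direction but lost the call. In 1 combination the direction turned: Apoe in HFD minus chow under median centring (-0.10). Of the combinations of a called difference and a left-out mouse, 254 kept the call and 35 lost it. With median centring the median of all genes was 0.14 in HFD+1B minus HFD and in the interaction, where the main fit gave 0.008 and -0.002. It moved the share of higher calls among all genes from 41.0% to 13.7% in HFD minus chow. In HFD+1B minus HFD that share went from 56.6% to 89.2%. Cy5 alone gave 25.1% and 71.0% there. In the order 1B, HFD, and HFD+1B minus chow, HFD+1B minus HFD, HFD+1B minus 1B, and interaction, 1, 4, 3, 4, 4, and 1 of the 9 genes were called. Leaving out 1 mouse gave 1 to 2, 2 to 4, 3 to 4, 2 to 4, 2 to 4, and 0 to 3. The HFD count was 2 without chow mouse 2 or HFD mouse 3, that of HFD+1B minus HFD was 2 without HFD mouse 4, and that of HFD+1B minus 1B was 2 without 1B mouse 1 or 3. Counts that moved over 1.5 times were 2 for HFD and 2 for HFD+1B minus 1B with median centring; 2 for HFD+1B minus 1B and 2 for the interaction with the authors' log2 ratios; 0 for 1B, 1 for HFD+1B, 1 for HFD+1B minus 1B, and 0 for the interaction with Cy5 alone; 2 for 1B and 0 for the interaction without a filter on dim probes; 3 for the interaction with probes above background on all 17 arrays; 2 for the interaction with slide as a block; 2 for HFD and 2 for the interaction with a trend; 2 for 1B and 3 for the interaction with the mean of all probes; 0, 2, 1, 1, and 1 for the comparisons of groups under a 2-fold rule with unadjusted p; and 1, 1, 0, and 2 for HFD, HFD+1B, HFD+1B minus HFD, and HFD+1B minus 1B under the methods' Tukey test. With the replicate number as a block the interaction count was 3 (Apob above 0, Apoa1 and Mttp below). The correlation of deviations of same-numbered mice was 0.24 to 0.48 for number 1, whose mice shared slide 1, -0.08 to 0.26 for number 2, -0.13 to 0.21 for number 3, and 0.07 to 0.40 for number 4, so it was not above 0.1 in every pair and the numbers were not taken as pairs. With median centring the count in HFD+1B minus HFD was 3, all of them higher. For Apoa4 in HFD+1B minus chow, Cy5 alone gave 4.36. The causes of these changes were not tested.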
